A study of Mus musculus with 65 samples.

Results

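The partners of TAL1 were examined through the peaks of 2 transcription factors at the genes that encode them. The genes were *Lyl1*, *Lmo2*, *Ldb1*, *Cbfa2t3*, *Tcf3* and *Tcf12*, 6 of 21938 protein-coding genes of the mouse annotation. Every TAL1 or CTCF peak of any library that touched one of these genes, or lay within 50 kb of either end, was taken. Peaks of all libraries of a factor were merged into sites where they shared at least 1 bp. This gave 36 of 13153 TAL1 sites and 71 of 95140 CTCF sites in windows that sum to 1008 kb.

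The study varied how far chromatin was sheared before ChIP-seq, in which DNA bound by a protein is pulled down with an antibody and sequenced. The deposited data were 53 peak lists, 1 per library. TAL1 was mapped only in G1E-ER4+E2 cells (10 Pass, 4 Low pass and 5 Fail libraries). G1E-ER4 is a single mouse line of erythroid progenitors derived from embryonic stem cells that lacks GATA1 and carries a GATA1 fused to the estrogen receptor, and +E2 marks 24 hours of estradiol, which all libraries of the line received. CTCF was mapped in bone marrow cells sorted from young male C57BL/6 mice (11 libraries of 8 types) and in G1E-ER4+E2 cells (14 Pass, 2 Low pass and 7 Fail). The primary types were LSK stem and progenitor cells (2 libraries), the myeloid progenitors CMP (1), MEP (1) and GMP (1), the erythroid CFUE (1) and ERY (2), and the megakaryocytic CFUMk (1) and iMK (2). The CMP and GMP libraries were Low pass and the other primary libraries Pass. Pass, Low pass and Fail are the authors' own judgement from looking at the signal, so they are not independent of the peaks. Libraries also differed in the number of cells used and, for some TAL1 libraries, in the fixative, so these groups do not differ in shearing alone.

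TAL1 is a basic helix-loop-helix protein that binds DNA only with an E protein as partner. *Tcf3* encodes the E proteins E12 and E47, and *Tcf12* encodes the E protein HEB. LMO2 bridges this dimer to GATA1 or GATA2, and LDB1, which binds LMO2 and can pair with itself, brings distant complexes together. *Cbfa2t3* encodes the corepressor ETO2, and *Lyl1* encodes the closest relative of TAL1. In erythroid cells the complex often sits on part of an E-box, CTG, set a short distance from a GATA motif. CTCF is a zinc finger protein that marks the bases of chromatin loops and boundaries between domains.

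The sequence under the TAL1 sites is shown for a selection of sites, as the best match to a 19-base matrix learned from TAL1 peaks elsewhere (capitals) with 20 bases on each side, on the strand of the match. Learning started from a pattern set in advance, CTG and AGATAA at a fixed spacing, so this layout in the capitals was partly put in. Positions in mm10 are those of the capitals, and sites are named by the distance of their centre from the start of the gene in the direction of transcription. The selection leans to strong matches. At *Tcf3* it shows -20.2 kb (match score of 16.2) and leaves out +48.7 kb (13.8), the site called in all 10 Pass libraries. At *Cbfa2t3* it shows +32.6 kb (16.7) and leaves out +13.4 kb (11.7), which had the higher median fold enrichment in Pass libraries.
Lyl1 +0.0 kb, chr8:84701642-84701660: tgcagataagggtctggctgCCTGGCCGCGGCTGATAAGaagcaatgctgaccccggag
Lyl1 +29.5 kb, chr8:84730978-84730996: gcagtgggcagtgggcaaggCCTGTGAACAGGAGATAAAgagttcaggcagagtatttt
Lmo2 -1.0 kb, chr2:103957002-103957020: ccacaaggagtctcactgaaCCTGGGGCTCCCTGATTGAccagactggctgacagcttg
Ldb1 +8.2 kb, chr19:46036610-46036628: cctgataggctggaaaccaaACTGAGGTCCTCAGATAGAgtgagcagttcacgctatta
Cbfa2t3 -21.1 kb, chr8:122720551-122720569: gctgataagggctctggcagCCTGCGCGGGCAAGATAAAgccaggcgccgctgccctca
Cbfa2t3 +32.6 kb, chr8:122666478-122666496: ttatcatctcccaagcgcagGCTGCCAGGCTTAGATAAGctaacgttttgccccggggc
Tcf3 -20.2 kb, chr10:80453794-80453812: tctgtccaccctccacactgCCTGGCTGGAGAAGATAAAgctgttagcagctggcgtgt
Tcf12 +74.3 kb, chr9:72037788-72037806: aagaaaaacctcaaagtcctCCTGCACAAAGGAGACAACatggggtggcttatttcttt

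The same was done for CTCF with a matrix learned from an LSK library, starting from a CTCF pattern set in advance. The sites shown are 1 called in at least 9 of 11 primary and all 14 Pass libraries at each of 5 genes, and the site that differed between primary cells and the line (*Cbfa2t3* +20.4 kb).
Lyl1 +36.2 kb, chr8:84737733-84737751: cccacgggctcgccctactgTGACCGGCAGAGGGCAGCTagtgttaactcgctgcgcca
Lmo2 +24.5 kb, chr2:103982414-103982432: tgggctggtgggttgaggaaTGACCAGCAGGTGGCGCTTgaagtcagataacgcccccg
Ldb1 +30.4 kb, chr19:46014769-46014787: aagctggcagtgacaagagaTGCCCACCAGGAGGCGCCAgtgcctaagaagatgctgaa
Cbfa2t3 +20.4 kb, chr8:122678787-122678805: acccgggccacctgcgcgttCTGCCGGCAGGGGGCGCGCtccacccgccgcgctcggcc
Tcf3 -12.6 kb, chr10:80446349-80446367: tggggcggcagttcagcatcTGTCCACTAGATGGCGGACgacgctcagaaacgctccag
Tcf12 +279.9 kb, chr9:71831945-71831963: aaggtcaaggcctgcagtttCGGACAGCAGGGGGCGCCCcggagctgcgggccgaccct

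Peak lists held 193 to 36481 peaks, and the depth of the libraries is unknown from them. TAL1 lists held 2670 to 9763 peaks in Pass, 1212 to 2751 in Low pass and 204 to 606 in Fail libraries. CTCF lists held 6629 to 36481 peaks in primary cells and, in the line, 10655 to 21986 in Pass, 6542 to 7078 in Low pass and 193 to 17343 in Fail libraries. The labels of TAL1 Pass replicate 10 name CTCF as its antibody while its title names TAL1. Of its sites, 79.0% were called in at least 50% of the other TAL1 Pass libraries and 5.29% overlapped a CTCF site of the line, and the other TAL1 Pass libraries had 40.7% to 93.9% and 4.71% to 5.86%. It was kept as TAL1, and results without it are covered where each library was left out in turn. Nothing in the labels says that libraries came from separate cultures or animals, so p-values measure the spread between libraries, which may be technical.

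TAL1 occupied sites at all 6 genes of its partners in G1E-ER4+E2 cells. A shared site is one called in at least 50% of the Pass libraries of its factor in the line, and 20 of the 36 TAL1 sites were shared. *Cbfa2t3* had 8 of them, *Lyl1*, *Tcf3* and *Tcf12* 3 each, *Lmo2* 2 and *Ldb1* 1. Each gene had at least 1 site called in all 10 Pass libraries, 11 sites in all. Across all protein-coding genes, 31.8% had a shared TAL1 site in a window built the same way, and 17.3% had one called in every Pass library. For *Cbfa2t3*, 99.96% of protein-coding genes had as many shared TAL1 sites or fewer, and for *Ldb1* 85.6%. The windows differ in length, so the density was also taken. It was 4.60 shared TAL1 sites per 100 kb at *Cbfa2t3*, 2.91 at *Lyl1*, 2.42 at *Tcf3*, 1.61 at *Lmo2*, 0.88 at *Ldb1* and 0.813 at *Tcf12*. Over the whole length of the genome it was 0.168, a figure not limited to windows around genes and so not a like comparison. The 5 sites called in a single library were all called in a Pass library.

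**Figure D1:**
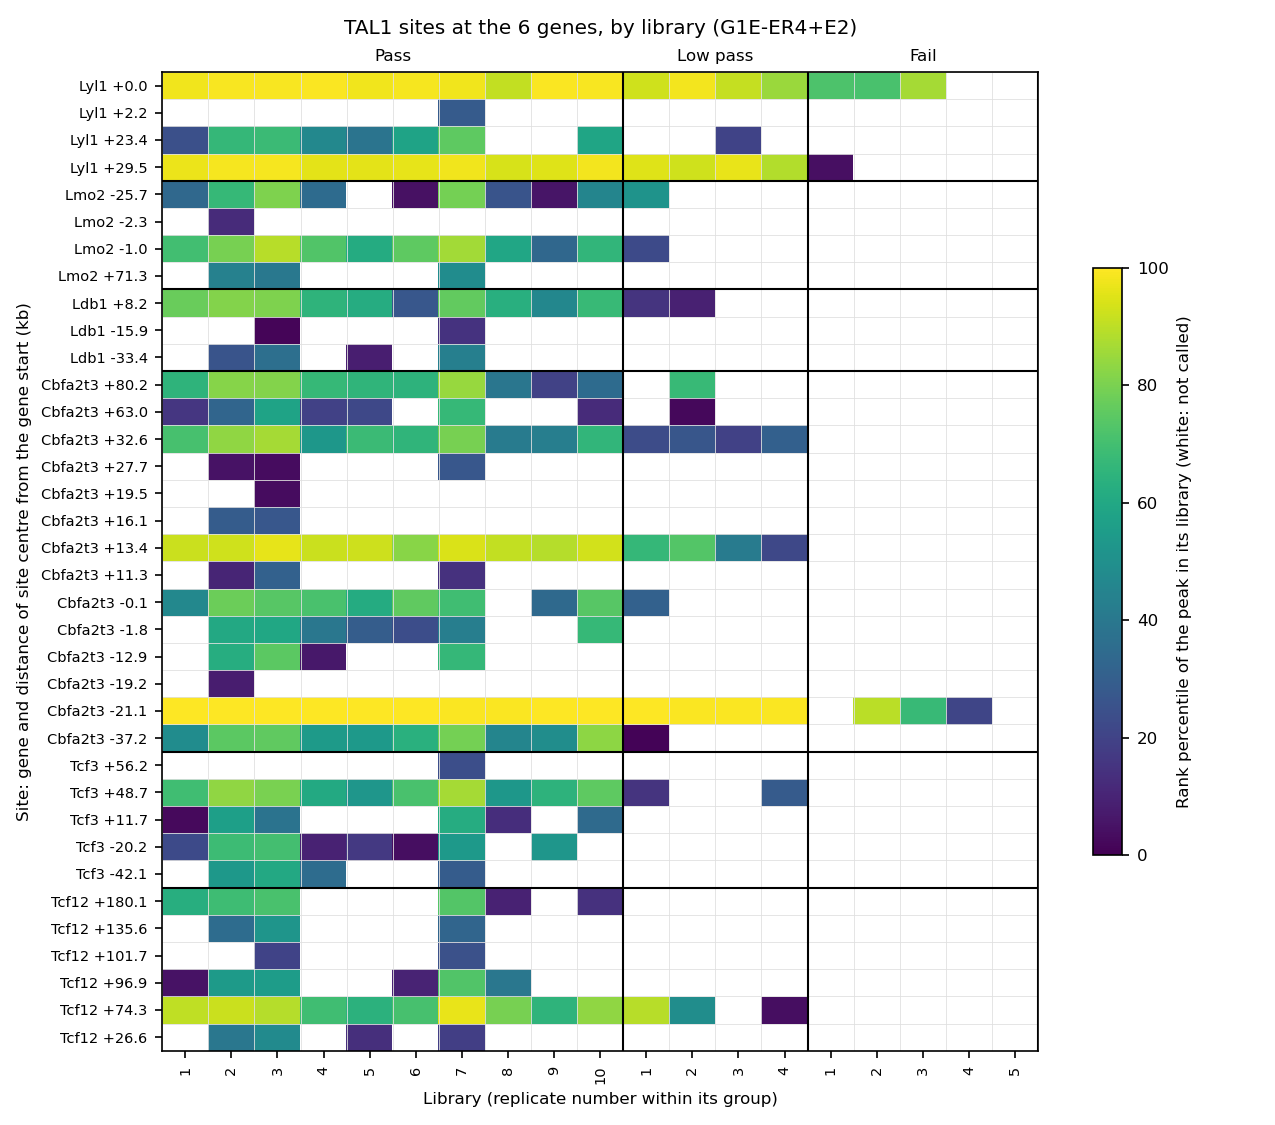
TAL1 sites at the 6 genes (rows, named by gene and distance of the site centre from the gene start in kb) in the 19 TAL1 libraries (columns, by replicate number within Pass, Low pass and Fail). Colour is the rank percentile of the peak by −log10 p within its library, with 100 the strongest and white not called. The rows Lyl1 +0.0, Lyl1 +29.5 and Cbfa2t3 -21.1 are filled across all 10 Pass and 4 Low pass libraries and are the 3 rows with a call in a Fail library.

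The TAL1 site with the highest rank at these genes lay upstream of *Cbfa2t3*, while the *Lyl1* start had the higher median fold enrichment. It covered chr8:122719296-122721122, 21.1 kb before the gene start, in an intron of Gm20388, an annotated gene that overlaps *Cbfa2t3*. All 10 Pass libraries called it, with a fold enrichment over background of 44.5 (lowest), 57.2 (median) and 114 (highest). The rank percentile of a peak is its rank by −log10 p in its own library, counted from the weakest, as a percent of the peaks. Tied peaks share their mean rank. This site stood between 99.4 and 99.96 in the Pass libraries, with a −log10 p of 310 in Pass replicates 2, 3 and 7. The 4 Low pass libraries gave fold enrichments of 38.0, 40.9, 24.45 and 27.2, at ranks of 99.8, 99.3, 99.5 and 99.6. Of the 5 Fail libraries, 3 called it, with fold enrichments of 17.4, 36.0 and 8.47 at ranks of 89.8, 67.3 and 20.9. It was thus near the top of every Pass and Low pass list and lower in the Fail lists that held it. The site held 4 copies of AGATAA or its complement.

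*Lyl1* had its strongest TAL1 site over its own start (chr8:84700659-84702267). The fold enrichment was 26.3, 66.4 and 130 (lowest, median and highest) in the 10 Pass libraries and 31.0, 34.3, 19.45 and 21.04 in the 4 Low pass libraries. In the 3 of 5 Fail libraries that called it, the fold enrichment was 12.5, 12.9 and 35.9. The ranks were 90.7 to 99.3 in Pass, 84.9 to 98.2 in Low pass and 71.3 to 86.6 in those Fail libraries, so that Pass and Low pass ranks overlapped. A second strong site at chr8:84730346-84731542, 29.5 kb downstream in an intron of the neighbouring gene *Nfix*, was called in 10 Pass libraries (ranks of 93.9 to 98.8), in 4 Low pass libraries (ranks of 95.1, 92.6, 96.6 and 88.4) and in 1 Fail library, at a rank of 3.95. The third shared site, at +23.4 kb, was weaker, with 8 Pass libraries at ranks of 24.4 to 75.2 and 1 Low pass library at 19.98.

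*Cbfa2t3* carried 7 further shared TAL1 sites, and 4 of the 8 touched the gene itself. At +13.4 kb, in an intron, the site was called in 10 Pass libraries at ranks of 82.4, 92.2 and 96.1 (lowest, median and highest) and in 4 Low pass libraries at ranks of 66.6, 73.3, 41.4 and 21.8. At +32.6 kb, also intronic, ranks were 41.7, 67.1 and 86.5 in the 10 Pass libraries and 23.2, 26.7, 19.3 and 30.5 in the 4 Low pass libraries. No Fail library called either. The promoter site, centred 135 bp before the gene start, was called in 9 Pass libraries and 1 Low pass library, and a site 1.8 kb upstream in 7 Pass libraries and no other. The remaining sites lay at -37.2 kb (10 Pass libraries and 1 Low pass library), at +63.0 kb in an exon (7 and 1) and at +80.2 kb in an exon of *Pabpn1l* (10 and 1).

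*Lmo2* and *Ldb1* had the fewest shared TAL1 sites by count, while the density per 100 kb was lowest at *Tcf12*. At *Lmo2*, TAL1 sat 1.0 kb before the gene start (chr2:103956513-103957538) in all 10 Pass libraries, with a fold enrichment of 9.0, 19.5 and 44.2 (lowest, median and highest), and in 1 Low pass library at 8.33. A second *Lmo2* site 25.7 kb upstream, outside any protein-coding gene, was called in 9 Pass libraries at ranks of 4.36 to 80.5 and in 1 Low pass library at 51.5. At *Ldb1*, the only shared TAL1 site was inside the gene at +8.2 kb (chr19:46036267-46037798). Its fold enrichment was 9.84, 16.4 and 32.3 in the 10 Pass libraries and 6.42 and 8.72 in 2 of 4 Low pass libraries. RefSeq places one of the *Ldb1* starts there. Its promoter (GRCm38.p6, chr19:46037021-46037320, minus strand) is printed with AGATAA or its complement in capitals. Both factors had a peak on it in some library, as they did on the *Lyl1* promoter, which held 0 copies of the word. The printed promoter was the only one searched at these genes that held the word, so it is not typical of them.
Ldb1 promoter: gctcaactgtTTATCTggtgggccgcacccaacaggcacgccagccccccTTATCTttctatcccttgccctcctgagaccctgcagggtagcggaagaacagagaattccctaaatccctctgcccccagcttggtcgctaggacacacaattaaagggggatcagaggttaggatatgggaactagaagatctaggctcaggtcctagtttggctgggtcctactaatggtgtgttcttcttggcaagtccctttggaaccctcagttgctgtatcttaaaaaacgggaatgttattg
It held 2 of these 6-base words, which 11.2% of 32851 RefSeq promoters of the same length held at least once. The RefSeq table held promoters for 5 of the 6 genes.

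The E protein genes were bound away from their starts. In the *Tcf3* window, the site called in all 10 Pass libraries lay 48.7 kb downstream of the gene start in an intron of *Mex3d*, with ranks of 52.6, 70.1 and 86.5 in Pass libraries and of 15.2 and 28.8 in 2 of 4 Low pass libraries. Sites at -20.2 kb (8 Pass libraries) and at +11.7 kb in an intron of *Tcf3* (6 Pass libraries) were called in no other library. At *Tcf12*, a gene of 269 kb, all 3 shared sites lay in the gene. The site at +74.3 kb (chr9:72036601-72038556, intron) was called in 10 Pass libraries with a fold enrichment of 10.5, 20.2 and 41.9, and in 3 Low pass libraries with 16.7, 11.2 and 6.79. It held 6 copies of AGATAA or its complement, the most of any shared TAL1 site here. The sites at +96.9 kb, in an exon, and at +180.1 kb, in an intron, were called in 6 Pass libraries each and in no Low pass or Fail library.

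Of the 20 shared TAL1 sites, 11 lay in introns, 4 in exons, 3 at promoters (within 1000 bp of a protein-coding transcript start) and 2 between genes. Among the 4547 shared TAL1 sites elsewhere, 44.4% were in introns, 11.9% in exons, 13.8% at promoters and 29.9% between genes. The nearest protein-coding start was that of the partner gene itself for 15 of the 20. For the other 5 sites a neighbouring gene was nearer, and nothing in the peak lists tells which gene a site acts on. The median rank over Pass libraries, taken per site, had a median of 65.9 at the 20 sites and 54.4 elsewhere. No test was made of these differences.

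A match to the TAL1 matrix (p of 0.0001 per position, both strands) was found in 18 of the 20 shared sites and in 71.5% of shared sites elsewhere. Windows of the same widths 10 kb away held a match in 4 of 20 cases at the 6 genes and in 36.6% elsewhere. At a stricter p of 1e-05, 8 of 20 sites matched, against 31.7% elsewhere and 0 of 20 windows 10 kb away. Whole sites were scanned, and TAL1 sites at the 6 genes had a median width of 970 bp, against 825 bp over all TAL1 sites. Within the middle 200 bp, 10 of 20 shared sites matched at p of 0.0001, against 47.5% elsewhere. The letters AGATAA or their complement were in 16 of 20 shared sites and in 74.2% elsewhere. The sites without a matrix match were *Cbfa2t3* +63.0 kb and *Tcf3* +11.7 kb. The matrix was started from CTG and AGATAA, so these shares are no independent evidence for that layout. A match is a description of the letters in the window and does not place the protein.

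Pass libraries called more of these sites than Low pass and Fail libraries did. Of the 20 shared sites, Pass libraries called 14 to 20 (median of 17.5), Low pass libraries 6 to 12 (median of 8) and Fail libraries 0 to 2 (median of 2). The groups did not overlap, but the shared sites were defined on the Pass libraries. Elsewhere, a median of 81.7%, 32.0% and 1.36% of shared sites was called in Pass, Low pass and Fail libraries, against 87.5%, 40% and 10.0% at the 6 genes. Fail libraries called only the *Cbfa2t3* -21.1 kb, *Lyl1* +0.0 kb and *Lyl1* +29.5 kb sites. Low pass libraries called 9 of 12 possible library and site combinations at *Lyl1* and 16 of 32 at *Cbfa2t3*, but 2 of 8 at *Lmo2*, 2 of 4 at *Ldb1*, 2 of 12 at *Tcf3* and 3 of 12 at *Tcf12*.

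**Figure D2:**
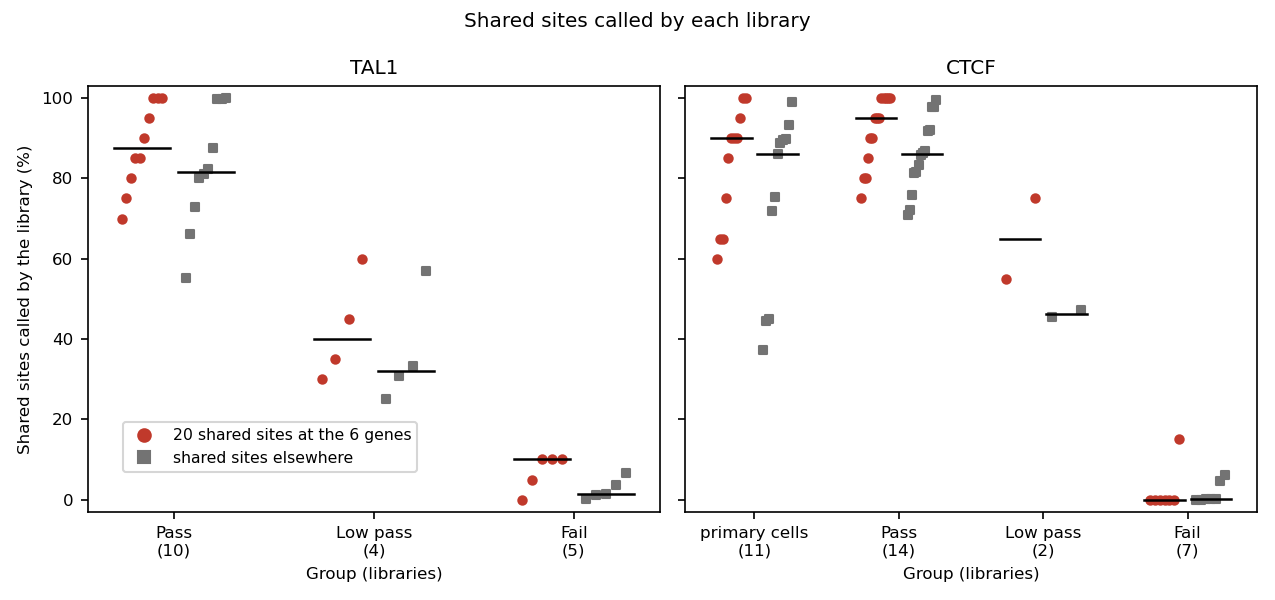
Percent of shared sites called by each library, for TAL1 (left) and CTCF (right), with the 20 shared sites at the 6 genes as red circles and shared sites elsewhere as grey squares. Groups run along the x axis with the number of libraries, and black lines are medians. For TAL1 the medians at the 6 genes are 87.5% in Pass, 40% in Low pass and 10.0% in Fail libraries.

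Site by site, two-sided Fisher's exact tests compared the number of Pass libraries (of 10) with that of Low pass or Fail libraries (of 9) that called a site, with Benjamini-Hochberg adjustment over the 7115 TAL1 sites called in at least 3 libraries. Of the 28 sites at the 6 genes that could be tested, 17 were called in more Pass libraries at an adjusted p of 0.05, against 48.9% of all sites tested. None was called in fewer, at an adjusted or at an unadjusted p under 0.05. Over all 7115 sites tested, only 2 were called in fewer Pass libraries at an adjusted p of 0.05. The lowest adjusted p was 0.00160, for *Lmo2* -1.0 kb, *Cbfa2t3* +80.2 kb and *Cbfa2t3* -37.2 kb, each in 10 of 10 Pass and 1 of 9 other libraries. The 2 strongest sites did not pass, since Low pass and Fail libraries held them too. *Lyl1* +0.0 kb and *Cbfa2t3* -21.1 kb were each called in 10 of 10 Pass and 7 of 9 other libraries (adjusted p = 0.214), and *Lyl1* +29.5 kb in 10 and 5 (adjusted p = 0.0541). The count fell to 11 when Pass replicate 1, 2, 3 or 7 was left out. Of 19 fits without 1 library, *Cbfa2t3* +63.0 kb lost its call in 11 and *Cbfa2t3* +32.6 and +13.4 kb in 10 each. *Tcf3* +11.7 kb and *Tcf12* +180.1 and +96.9 kb lost theirs in 6 each, and *Lyl1* +29.5 kb gained one in 5. Pass lists were also longer than Low pass and Fail lists, and the part of list length in these counts was not tested.

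CTCF occupied each of the 6 windows as well, with 20 shared sites among 71. A shared CTCF site was found in the window of 68.2% of all protein-coding genes. *Tcf3* had 5, *Lyl1* and *Ldb1* 4 each, *Lmo2* 3, and *Cbfa2t3* and *Tcf12* 2 each. Per 100 kb there were 4.03 at *Tcf3*, 3.87 at *Lyl1*, 3.52 at *Ldb1*, 2.42 at *Lmo2*, 1.15 at *Cbfa2t3* and 0.542 at *Tcf12*. Over the whole length of the genome, not limited to windows around genes, there were 0.511. The order differed from that of TAL1, where *Cbfa2t3* was first. In all 14 Pass libraries 11 sites were called, and 11 were called in all 11 primary libraries. A match to the CTCF matrix was found in 19 of the 20 shared sites and in 98.9% of those elsewhere, and the one without it was *Cbfa2t3* +1.6 kb. Windows 10 kb away held a match in 15 of 20 cases, so this threshold was loose for CTCF. At p of 1e-05, 18 of 20 sites and 4 of 20 windows matched.

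**Figure D3:**
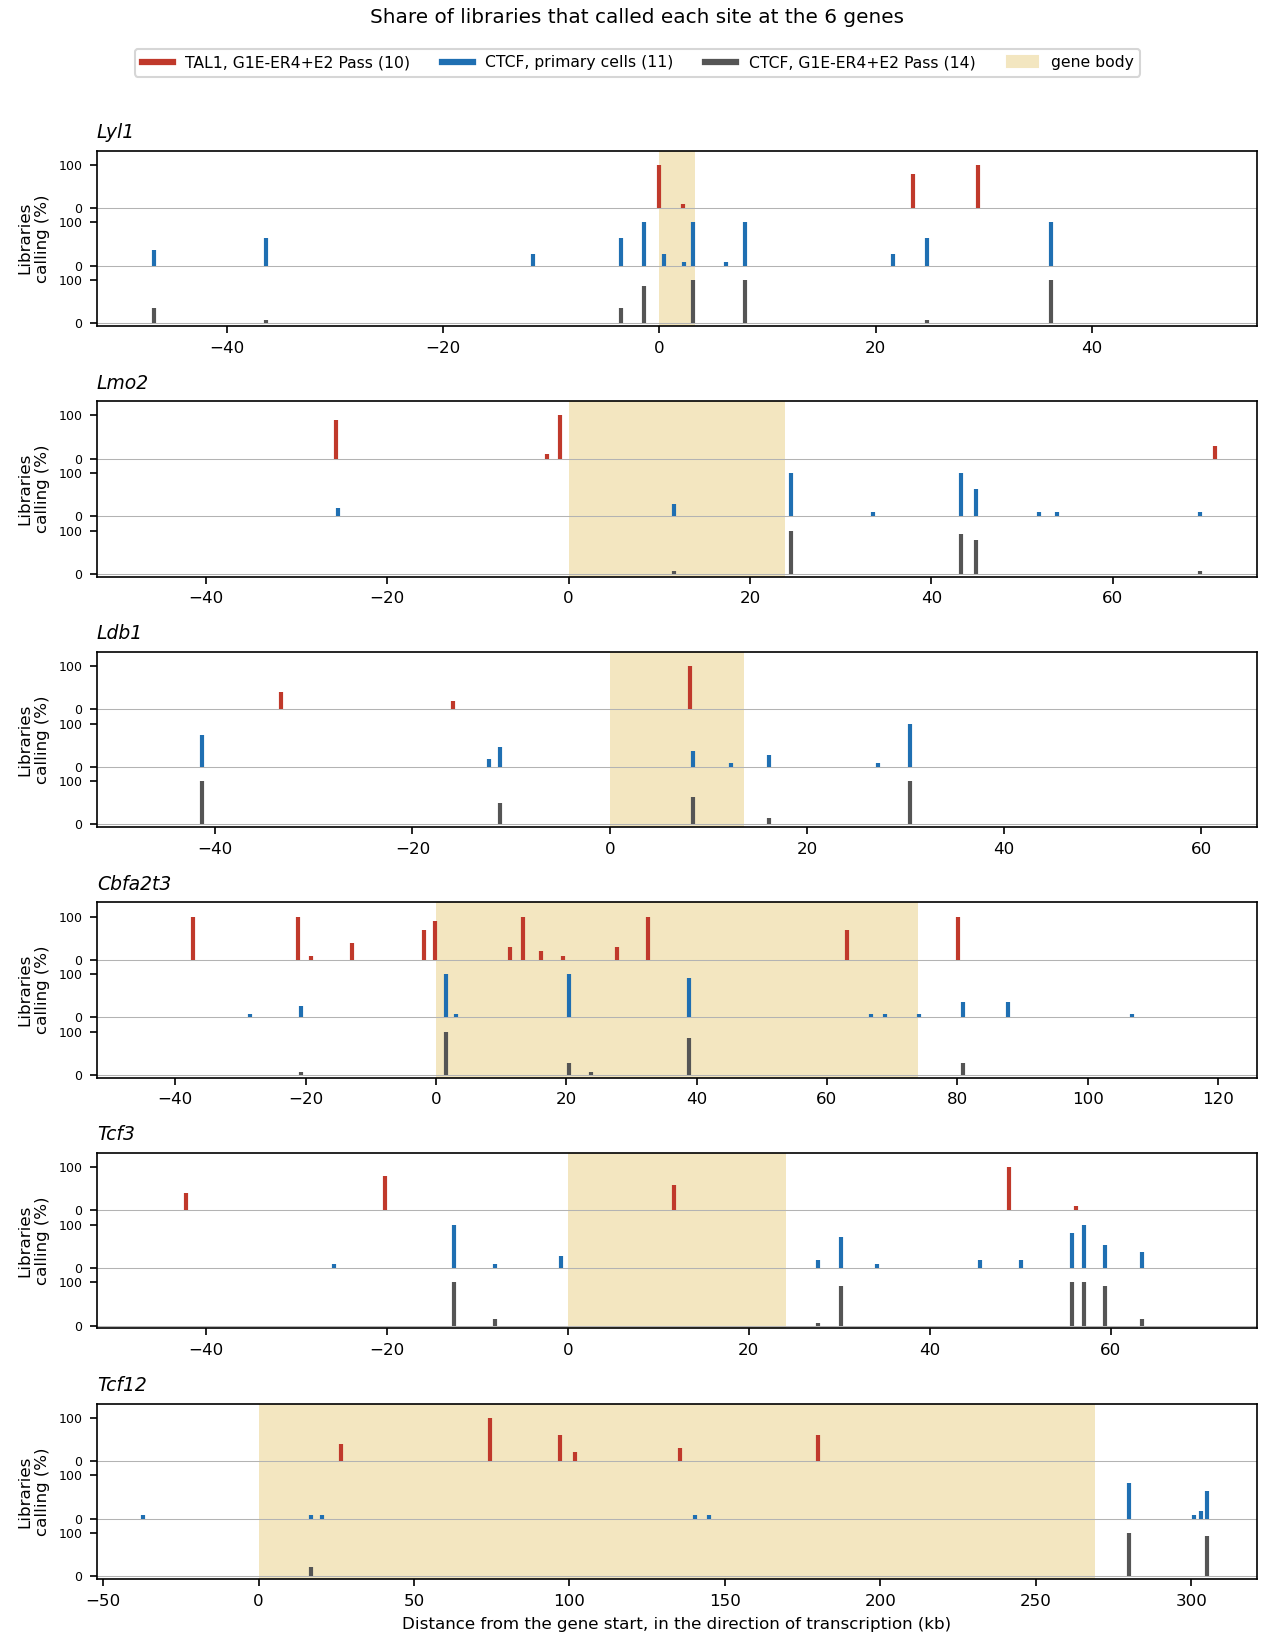
Percent of libraries that called each site (bar height, 0 to 100 in each track) against the distance of its centre from the gene start in kb, for TAL1 in 10 G1E-ER4+E2 Pass libraries (red), CTCF in 11 primary libraries (blue) and CTCF in 14 G1E-ER4+E2 Pass libraries (grey). The gene body is shaded. In Cbfa2t3 the red bars are the most numerous and the blue bar at +20.4 kb stands far above the grey one, and in Tcf12 the tall blue and grey bars lie past the end of the gene.

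CTCF sites flanked *Lyl1* closely. They were centred 1.4 kb upstream (chr8:84699326-84700830), 3.1 kb downstream of the start at the end of the gene (chr8:84704092-84705065), at +7.9 kb and at +36.2 kb, and all 11 primary libraries called all 4. In the line, 12 of 14 Pass libraries called the first and 14 the others. At -1.4 kb the rank was 10.8, 70.2 and 95.2 (lowest, median and highest) in primary libraries and 11.5, 35.5 and 89.1 in the 12 Pass libraries. At +36.2 kb it was 37.0, 94.9 and 98.6 in primary libraries and 84.6, 92.7 and 99.1 in Pass libraries. The matches at +3.1 kb (score of 24.3) and +36.2 kb (18.6) were on the minus strand and that at +7.9 kb (23.7) on the plus strand. The match at -1.4 kb, on the plus strand, scored 9.88 and did not reach p of 1e-05, so its strand is uncertain. The strong TAL1 sites at +0.0 and +29.5 kb thus lay between CTCF sites called in all primary libraries.

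At *Lmo2*, all shared CTCF sites were downstream of the gene body, at +24.5 kb (11 of 11 primary and 14 of 14 Pass libraries), +43.3 kb (11 and 13) and +44.9 kb (7 and 11). All 3 matches were on the minus strand, and both shared TAL1 sites of the gene lay upstream of its start. At *Ldb1*, the +30.4 kb site was called in 11 primary and 14 Pass libraries, with fold enrichments of 8.54, 25.2 and 85.4 in primary and 12.8, 16.9 and 43.5 in Pass libraries. Its other strong site, at -41.3 kb, was called in 8 primary and 14 Pass libraries. The site at +8.5 kb (4 primary and 9 Pass libraries) overlapped the TAL1 site in *Ldb1* by 966 bp, its ranks were between 6.17 and 39.7 in the primary libraries that called it, and these were the 2 LSK, the GMP and the CFUMk libraries.

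At *Tcf3*, the strongest CTCF site lay 12.6 kb upstream of the start, between genes (chr10:80445595-80446895). Its fold enrichment was 17.9, 38.3 and 95.2 in the 11 primary libraries and 15.2, 21.2 and 62.8 in the 14 Pass libraries, and ranks were 83.5 to 99.6 and 83.3 to 99.3. A group of 3 shared sites lay past the 3′ end at +55.7, +57.0 and +59.3 kb, called in 9, 11 and 6 primary libraries and in 14, 14 and 13 Pass libraries. At *Tcf12*, no shared CTCF site lay in the 269 kb of the gene. The shared sites were at +279.9 kb (9 primary and 14 Pass libraries) and +305.3 kb (7 and 13), both beyond its 3′ end. At +279.9 kb neither ERY library had a peak, while ranks were 58.7, 86.3 and 99.0 in the 9 primary libraries that called it and 56.6, 92.5 and 97.2 in the Pass libraries. The ERY lists, with 8284 and 6629 peaks, were the shortest of the primary lists. Inside *Tcf12*, a site at +17.0 kb was called in 3 Pass libraries and 1 primary library.

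**Figure D4:**
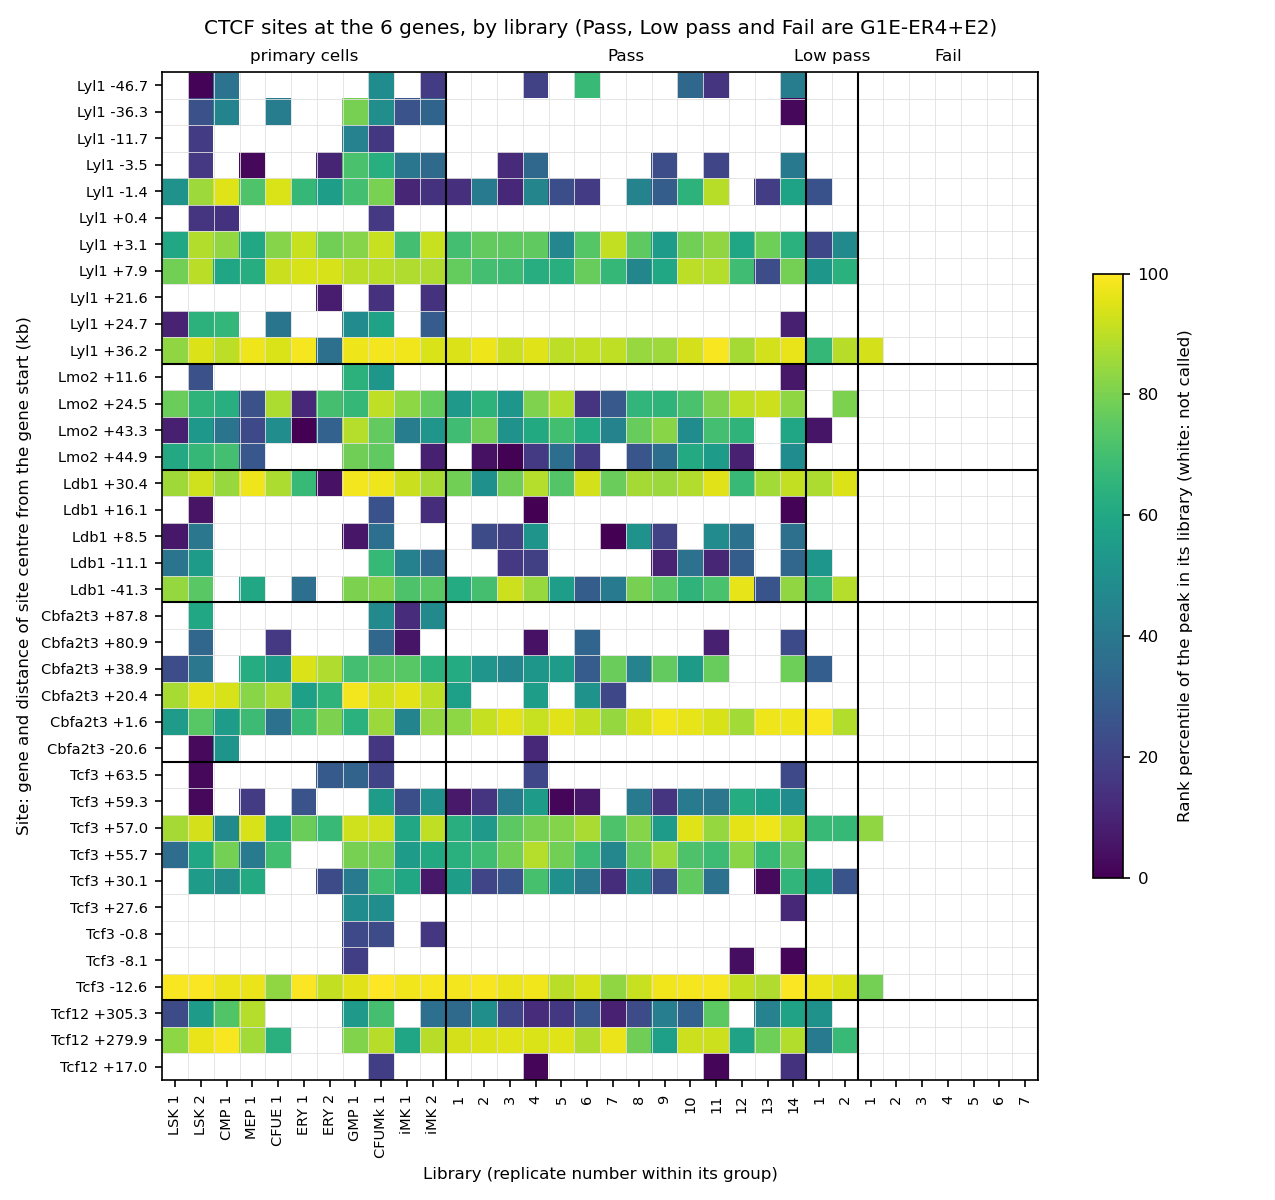
CTCF sites at the 6 genes that were called in at least 3 of the 25 primary and Pass libraries (38 rows, named as gene and kb from the gene start) in all 34 CTCF libraries. Columns run from primary cells to the Pass, Low pass and Fail libraries of G1E-ER4+E2, colour is the rank percentile within the library and white is not called. Cbfa2t3 +20.4 is filled in all 11 primary columns and in 4 of 14 Pass columns, and Tcf3 -12.6 is near the top of the scale across both groups.

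Primary cells and the line differed at 1 of these CTCF sites. The site was inside *Cbfa2t3* at +20.4 kb (chr8:122678222-122679242), centred 557 bp before an internal start of the gene in both GENCODE and RefSeq. All 11 primary libraries of 8 cell types called it, and 4 of 14 Pass libraries of the line did (difference of 71.4 percentage points, Fisher's exact test, adjusted p = 0.0107). Over all 28834 CTCF sites tested in this comparison, 9.82% were called in more primary libraries and 1.28% in fewer. Of the 38 sites at the 6 genes that were tested, 1 was called in more and 0 in fewer. At an unadjusted p under 0.05 the counts were 4 and 0. The count of higher calls was 3 without MEP 1, ERY 1, ERY 2 or Pass replicate 14, and 2 without LSK 1 or iMK 1.

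At *Cbfa2t3* +20.4 kb the fold enrichment in primary cells was 17.6 and 51.4 in LSK, 40.9 in CMP, 15.8 in MEP, 26.6 in CFUE, 11.02 and 13.2 in ERY, 91.5 in GMP, 56.8 in CFUMk and 33.1 and 33.5 in iMK. In the 4 Pass libraries of the line that called it, the fold enrichment was 11.6, 13.4, 11.1 and 9.26. Ranks were 56.4 to 98.4 in primary cells, lowest in the 2 ERY libraries, and 21.7 to 56.3 in those 4 libraries. The call held without any one of the 25 libraries (adjusted p of 0.00546 to 0.0136). Since lists of different length could by themselves differ in their calls, the comparison was also made on the 6629 strongest peaks of each library. This setting was chosen after the data had been seen. There, 11 primary and 2 Pass libraries called the site (adjusted p = 0.000752). Of 17 sites at the 6 genes tested at that setting, 1 was called in more and 2 in fewer primary libraries, against 10.6% and 8.14% of all 12206 sites tested. Over all sites the split between higher and lower calls thus moved from 2832 and 368 on the full lists to 1298 and 994 on lists of equal length. Primary cells and line also differ in fixation time, in the numbers of cells used and in growth in the animal or in culture, which cannot be told apart from the cell type here.

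The other CTCF sites of the *Cbfa2t3* body behaved differently. The site at +1.6 kb (chr8:122696972-122698045, intron) was called in all 11 primary and all 14 Pass libraries. Its ranks were 37.6, 67.6 and 85.0 (lowest, median and highest) in primary cells and 83.0, 93.9 and 97.9 in the line, overlapping only at the edge. On lists of equal length it was called in 5 primary and 14 Pass libraries (adjusted p = 0.0205), whereas on the full lists the adjusted p was 1. The site at +38.9 kb was called in 10 primary and 12 Pass libraries, and its ranks overlapped (23.6 to 94.5 and 29.2 to 77.9). *Tcf3* +55.7 kb likewise passed only on lists of equal length, with 2 primary and 14 Pass libraries (adjusted p = 0.000752), against 9 and 14 on the full lists (adjusted p = 0.384).

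**Figure D5:**
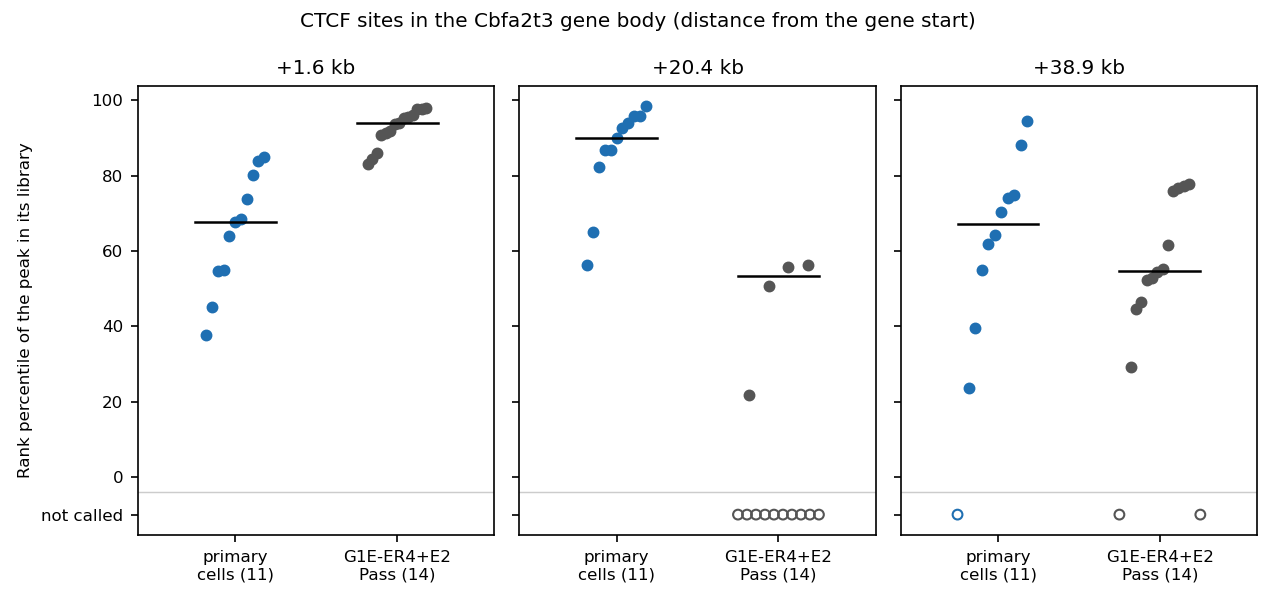
Rank percentile of the CTCF peak within its library (y axis) at 3 sites in the body of Cbfa2t3, for 11 primary libraries (blue, left in each panel) and 14 G1E-ER4+E2 Pass libraries (grey, right). Each point is a library, open circles are libraries without a call and black lines are medians of those with one. The primary points lie lower at +1.6 kb, while at +20.4 kb all 11 primary libraries and 4 Pass libraries have a call.

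Of the 71 CTCF sites, 34 were called in both primary and Pass libraries, 28 in primary libraries only, 1 in Pass but no primary library, 6 in Fail libraries only and 2 in a primary and a Fail library. Over all 95140 CTCF sites, 24.1% were called in both primary and Pass libraries, 40.4% in primary libraries only, 3.6% in Pass but no primary libraries and 29.8% in Fail libraries only. Of the 28 sites of primary cells alone, 5 were called in 3 or more libraries. The CFUMk library, with the longest list, called 15 of the 28, the GMP library 9 and the LSK libraries 0 and 7, and the ERY libraries 1 each. Sites called in all 8 primary cell types numbered 11. *Lyl1* -36.3 kb and +24.7 kb were each called in 7 primary libraries of 6 types and in 1 Pass library (Fisher's exact test, adjusted p = 0.0555). With 1 or 2 libraries a type, no test was made between the primary types. The 6 sites of Fail libraries alone were 125 to 201 bp wide, against a median of 1052 bp at the shared sites, and 71.2% to 100% of their bases were soft-masked as repeats. Of these 6, 4 lay in introns of *Tcf12*.

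For CTCF in the line, Pass libraries called 15 to 20 of the 20 shared sites (median of 19), the 2 Low pass libraries 15 and 11, and the 7 Fail libraries 0 to 3 (median of 0). Here too the shared sites were defined on the Pass libraries. Elsewhere, a median of 86.2%, 46.3% and 0.259% of shared sites was called in Pass, Low pass and Fail libraries, against 95%, 65% and 0% at the 6 genes. By Fisher's exact test with adjustment over 20658 sites, 19 of the 25 tested sites at the 6 genes were called in more Pass libraries than Low pass or Fail libraries, against 65.5% of all sites tested. None of the 25 was called in fewer, adjusted or at an unadjusted p under 0.05. Over all 20658 sites, 49 were called in fewer at an adjusted p of 0.05. *Tcf3* +55.7 kb had the lowest adjusted p (4.61e-05), with 14 of 14 Pass and 0 of 9 other libraries. Only 1 Fail library, of 194 bp chromatin, called any shared site. It called *Lyl1* +36.2 kb, *Tcf3* +57.0 kb and *Tcf3* -12.6 kb, at ranks of 93.6, 83.5 and 79.0. The shared sites called in 2 of 2 Low pass libraries included *Tcf3* -12.6, +30.1 and +57.0 kb, *Cbfa2t3* +1.6 kb and *Tcf12* +279.9 kb. The others were *Lyl1* +3.1, +7.9 and +36.2 kb and *Ldb1* +30.4 and -41.3 kb.

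Shared TAL1 sites overlapped shared CTCF sites at 2 genes. Of the 20 shared TAL1 sites, 2 overlapped a shared CTCF site (10.0%, against 5.23% of shared TAL1 sites elsewhere), and the same pairs were 2 of the 20 shared CTCF sites (10.0%, against 1.74% elsewhere). They were the *Lyl1* start, where the CTCF site at -1.4 kb reached 172 bp into the TAL1 site, and *Ldb1* +8.2 kb. With CTCF sites called in any library, 7 of 36 TAL1 sites overlapped one. No share over all TAL1 sites is given for this looser rule, so the count is a description. The 7 included TAL1 sites called in 1 library only (*Lyl1* +2.2 kb and *Tcf3* +56.2 kb). They also included *Cbfa2t3* -21.1 kb, whose CTCF overlap of 551 bp was called in 3 primary libraries and 1 Pass library. TAL1 was not mapped in primary cells here, so both factors can be set side by side only in the line.

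A wider list of 27 genes of the complex and its relatives was counted in the same way. It included *Tal1*, *Gata1*, *Gata2*, the LDB1-binding *Ssbp* genes, further ETO family genes, corepressor genes and the *Id* genes that encode inhibitors of E proteins. A shared TAL1 site was found at 17 of the 27 (63.0%), and one called in all 10 Pass libraries at 12, against the 31.8% and 17.3% of all protein-coding genes given above. *Zfpm1*, which encodes the GATA1 cofactor FOG1, had 9 shared TAL1 sites, *Gfi1b*, a repressor gene of erythroid cells, 5, and *Ssbp2*, *Ssbp3* and *Runx1* 4 each. *Tal1* itself had 3. The paralogs *Cbfa2t2*, *Runx1t1*, *Lmo4*, *Ldb2*, *Tal2* and *Tcf4* had none, while *Lmo1*, a paralog of *Lmo2*, had 2, as many as *Lmo2* itself. Windows of the listed genes differ in length and their genes were not chosen at random, so these counts are a description.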

How the data were processed

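ChIP-seq libraries were compared through their peak lists, 34 for CTCF and 19 for TAL1. The authors mapped reads to mm10 with Bowtie (1.0.0 in the submitters' processing notes) and called peaks per library with MACS, most libraries of the line against a composite input. The deposited lists give the fold enrichment (ratio) of each peak over background and its −log10 p. Both are used here as deposited, every peak has a −log10 p of about 5 or more, and fold depends on the background and depth of its library, so ranks within a library stand beside it. Depth is unknown from peak lists, so its effect on precision could not be given. The 12 input libraries were not used.

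Sites were placed with GENCODE vM21. Each library either called a site or did not, and groups were compared by Fisher's exact test with Benjamini-Hochberg adjustment over all sites called in at least 3 of the libraries compared (Python 3.11.15, scipy 1.17.1, numpy 2.4.6 and pysam 0.24.0). The tests were checked on simulated data. Groups came from the labels. The genes, lists and tests were chosen with earlier results of these data known. Named were TAL1 sites called in at least 5 of 10 Pass libraries, CTCF sites called in all 14 Pass or at least 9 of 11 primary libraries, those past an adjusted p of 0.05 between primary cells and line, and sites of a Fail library that were also shared. Sites named beyond this rule were chosen after their values were seen. Matrices of 19 bases were learned from 2000 peaks of 1 library per factor outside the 6 windows. Learning started from a pattern set by hand for each factor. Alternatives were a −log10 p of at least 10, peaks cut to their middle 200 bp, windows of 10 or 100 kb, Pass against Fail only, only Pass primary libraries, all sites tested, a stricter definition of shared sites, stricter or central motif scans, each library left out in turn and, added after the data had been seen, lists of equal length.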

Additional observations from a re-analysis of the deposited data

Results flagged for a closer look

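Of 28 groups of 4 to 10 values examined for a sample far from the others, 3 held one, where chance gives about 1 in 20 groups. Among the 7 CTCF Fail libraries, Fail replicate 1 called 3 of the 20 shared sites at the 6 genes and the other 6 called 0. At the TAL1 site over the *Lyl1* start, Pass replicate 8 had a rank percentile of 90.7, below the other 9 Pass libraries. At the TAL1 site 13.4 kb inside *Cbfa2t3*, Pass replicate 6 had a rank percentile of 82.4, also the lowest of the 10.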

How the results depend on the processing

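No paired analysis was possible because the labels give no replicate numbers and do not say which libraries came from the same batch of cells. No call in the text turned into a call in the opposite direction under an alternative. With each library left out in turn, the count of TAL1 sites called in more Pass libraries was 11 to 18 (17 with all libraries), that of CTCF sites 19 to 20 (19), and that of CTCF sites called in more primary libraries 1 to 3 (1). On lists of equal length, 2 CTCF sites were called in fewer primary libraries, against 0 on the full lists (17 and 38 sites tested). Differences that passed in neither setting could change sign, as at *Lmo2* +43.3 kb, called in 3 primary and 10 Pass libraries there and in 11 and 13 on the full lists. At a −log10 p of at least 10, shared sites were 13 for TAL1 and 13 for CTCF, and CTCF merged sites 35. Windows of 10 kb held 22 merged and 13 shared TAL1 sites and 35 merged and 8 shared CTCF sites. Windows of 100 kb held 57 merged TAL1 sites and 113 merged and 35 shared CTCF sites. Called in all Pass libraries were 11 sites of each factor. The TAL1 matrix matched 40% of shared sites at p of 1e-05 and 50% within the middle 200 bp, against 90% in the text. Single sites crossed the threshold in both directions (Fisher's exact test, adjusted p). At a −log10 p of at least 10, TAL1 at *Cbfa2t3* -21.1 kb and *Lyl1* +29.5 kb passed (0.0230 each), while *Lmo2* -25.7 kb (0.304), *Cbfa2t3* -1.8 kb, *Tcf3* -20.2 kb and *Tcf12* +180.1 kb (0.1199 each), *Tcf3* +11.7 kb and *Tcf12* +96.9 kb (0.212 each) and CTCF at *Lyl1* -1.4 kb (0.146) did not. With Pass against Fail only, TAL1 at *Lyl1* +29.5 kb passed (0.0108), while *Cbfa2t3* +63.0 and -1.8 kb (0.0527 each) and *Tcf3* +11.7 kb and *Tcf12* +180.1 and +96.9 kb (0.0793 each) did not. With peaks cut to 200 bp, *Cbfa2t3* -21.1 kb passed (0.0113) and *Tcf12* +180.1 kb did not (0.115). With all sites tested, *Cbfa2t3* +63.0 kb did not pass (0.0756). The cause was not tested. Peak lists give no depth, so a site without a call may be one below the threshold of its library.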
